A study of Mus musculus with 16 samples.

Results

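The gastrocnemius (Gas) and the soleus (Sol) of dexamethasone-treated wild type (WT) mice were compared by poly(A) RNA sequencing, with 3 libraries from each muscle. These 6 libraries, of 16 in the series, were chosen by the genotype and muscle in their labels, and no measured value entered the choice. Gas is a fast fiber-dominant muscle of the calf, and Sol is the slow fiber-rich muscle that lies beneath it. The WT mice were C57BL/6 males of 8 weeks that carried the floxed *Lsd1* allele but no Cre transgene, so *Lsd1*, the gene of a histone demethylase listed as *Kdm1a*, stayed intact. Tamoxifen was given on 5 days at 75 mg/kg. Dexamethasone (Dex), a synthetic glucocorticoid, was given on 7 days at 1 mg/kg, starting before the tamoxifen doses ended. Every mouse had received both agents, and the paper states a fast of 6 hr before tissue was taken. No untreated muscle enters any comparison. The other 10 libraries, 5 from each muscle, came from LSD1-mKO mice, which were *Lsd1* flox/flox and expressed CreERT2 under the promoter of human ACTA1, an actin gene of striated muscle, and were treated in the same way. The labels do not say whether a Gas and a Sol library came from the same mouse. Nor do they say that replicates came from separate mice. For the Sol data the paper counts 3 WT mice, and 3 LSD1-mKO mice where the series holds 5 libraries. For the Gas data it gives no number of mice, so the p-values are taken to measure the spread between these libraries.

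Skeletal muscle fibers are classed by the myosin heavy chain they carry. Type I fibers use *Myh7*, contract slowly and burn fatty acids and glucose in many mitochondria, whereas type IIA (*Myh2*), IIX (*Myh1*) and IIB (*Myh4*) fibers are progressively faster and lean more on glycolysis. Most sarcomere proteins and calcium-handling proteins come as a slow and a fast isoform from separate genes, and regulators such as calcineurin and NFAT, PGC-1α, the ERR receptors, Sox6 and the large Maf factors are known to favor one set or the other. Glucocorticoids waste fast fibers more than slow fibers, through ubiquitin ligases such as MuRF1 (*Trim63*) and atrogin-1 (*Fbxo32*).

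The WT Gas libraries held between 11009622 and 21594751 reads assigned to genes and the WT Sol libraries between 13917962 and 17982470, so 3 reads, the most that a count of 0 allows, came to between 0.139 and 0.272 CPM in Gas and between 0.167 and 0.216 in Sol. CPM is the usual depth-scaled read count. For these limits it was taken over the reads assigned to genes, and for all levels below after TMM scaling of the library sizes. The TMM factors ran from 0.842 in Gas replicate 3 to 1.107 in Sol replicate 3, so the limits are approximate on the scale of the levels. These limits cover counting error only. Gas and Sol were counted in separate tables as separate library series, so muscle and library series cannot be told apart in any result below. On the leading principal component (60.5% of the variance) Gas replicate 3 scored -85.1, against -24.8 and -16.1 for the other Gas libraries. The Sol libraries scored between 15.9 and 58.1. Gas replicate 3 also had the highest mean level of ribosomal protein genes, 8.62 in log2 CPM, against 7.44 and 7.17 in the other Gas libraries. In Sol the same level was 6.39, 7.25 and 6.55, highest in replicate 2. The fold change also ran with transcript length across genes (Spearman's rho = -0.323, 99.4% of tested genes with a length), so that short transcripts tended to be higher in Gas. Fits without Gas replicate 3 and fits with a covariate for ribosomal protein level are given below. They do not measure what part either had in the differences, which was not tested. The calls of named genes that were lost or gained with 1 library left out are also given below.

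Of 12938 genes tested, 1011 differed between WT Gas and WT Sol at an adjusted p under 0.05 (7.81%, edgeR quasi-likelihood test with Benjamini-Hochberg adjustment), and these are referred to as called. Of these, 491 were higher in Gas (3.8% of the genes tested) and 520 were higher in Sol (4.02%), and 893 (6.9%) lay beyond 1 on the log2 scale, 439 toward Gas and 454 toward Sol. All 1011 called genes had no overlap between the 3 Gas and the 3 Sol libraries, as did 30.9% of all genes tested. Before adjustment, 3196 genes (24.7%) had a p under 0.05. The median log2 fold change over all genes tested was 0.02. All fold changes are Gas over Sol, so a negative value is higher in Sol. The number called was lower without Gas replicate 1 (410), Gas replicate 2 (595), Sol replicate 1 (317) or Sol replicate 3 (308), was 823 without Sol replicate 2, and rose to 1633 without Gas replicate 3. In the 4 libraries left without the library of highest ribosomal protein level in each muscle it was 4596. All 1011 genes were called there in the same direction. That direction was all but fixed, because these libraries are part of the same set and no called gene overlapped between the muscles. The libraries left out were picked by a measured value, so the counts from this set are no separate evidence. Those 4 libraries are called the 4-library set below.

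**Figure D1:**
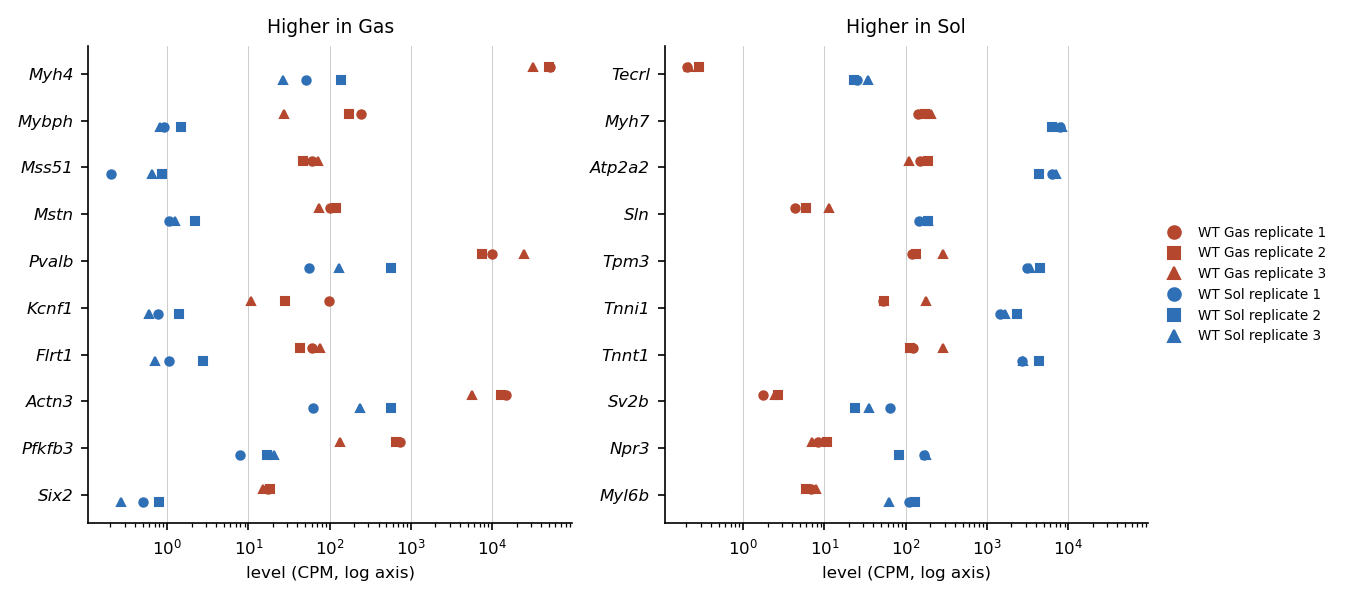
Level of the 10 genes with the largest difference on each side in each library, in CPM on a log axis, Gas in red and Sol in blue. Each marker is 1 library and the marker's shape gives the replicate number. Absence of overlap between the muscles was a condition for choosing the 20 genes. *Myh4* stood at 32058 CPM or more in Gas and at 136 CPM or less in Sol.

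The labels of both muscles matched the markers of their fibers. *Myh4*, the type IIB myosin heavy chain (chr11:67238029-67260446, GRCm38, as for the coordinates below), stood at 51395, 49578 and 32058 CPM in Gas and 51.0, 136 and 26.5 CPM in Sol (log2 fold change 9.28 ± 0.80 SE, adjusted p = 0.00143). This 623-fold difference was the largest toward Gas of those called at 100 reads or more on average. Without Sol replicate 2, the highest Sol library, the log2 value was 10.16. *Myh7*, the type I chain (chr14:54970684-54994626), stood at 141, 174 and 204 CPM in Gas and 7803, 6309.7 and 8455 CPM in Sol (log2 fold change -5.44 ± 0.31 SE, adjusted p = 0.000466). *Myl2*, the slow regulatory light chain, stood at 219, 147 and 378 CPM in Gas and 2664, 3959.6 and 2865 CPM in Sol (log2 fold change -3.67 ± 0.41 SE, adjusted p = 0.00293), and each Sol library exceeded each Gas library several times over. *Tnni1*, slow troponin I, stood at 52.1, 53.4 and 178 CPM in Gas and 1433, 2342 and 1642 CPM in Sol (log2 fold change -4.26 ± 0.57 SE, adjusted p = 0.00496). Gas replicate 3 had the highest Gas level of *Tnni1* and moved it to -5.10 when left out. *Tnnc2*, fast troponin C, stood at 17597, 12746 and 41510.3 CPM in Gas and 4729.7, 8521 and 4225 CPM in Sol, without overlap, but its difference missed the threshold (log2 fold change 2.04 ± 0.51 SE, adjusted p = 0.0505). *Kdm1a*, intact in both groups, stood at 38.4, 35.9 and 45.9 CPM in Gas and 32.5, 33.3 and 31.7 CPM in Sol (log2 fold change 0.30 ± 0.19 SE, adjusted p = 0.354). In whole muscle, fewer fibers of a type and less RNA per fiber cannot be told apart.

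Of the 10 sarcomeric myosin heavy chain genes 9 were tested, and 7 differed between the muscles (77.8%, against 7.81% of all genes tested). Of the 7, *Myh4* alone was higher in Gas and 6 were higher in Sol. *Myh2*, the type IIA chain (chr11:67171027-67197517), stood at 1901, 1955 and 1640.2 CPM in Gas and 14501, 9851 and 12328 CPM in Sol (log2 fold change -2.74 ± 0.27 SE, adjusted p = 0.00226). *Myh1*, the type IIX chain, stood at 5204, 4473 and 2825 CPM in Gas and 5822, 8114 and 7946 CPM in Sol and was not called (log2 fold change -0.81 ± 0.31 SE, adjusted p = 0.155), although the Sol libraries were all above the Gas libraries. The 4 chains of low level that were called were all higher in Sol. *Myh7b*, an ancient slow-type chain with an intronic miRNA, stood at 4.87, 4.56 and 4.11 CPM in Gas and 43.4, 43.9 and 53.1 CPM in Sol (log2 fold change -3.37 ± 0.21 SE, adjusted p = 0.000466). *Myh3*, the embryonic chain, stood at 5.17, 4.56 and 8.32 CPM in Gas and 59.7, 31.4 and 63.0 CPM in Sol (log2 fold change -3.11 ± 0.36 SE, adjusted p = 0.00326). *Myh6*, the cardiac alpha chain (-2.42), and *Myh13*, the extraocular chain (-2.36), had Sol means of 13.6 ± 2.20 and 14.2 ± 2.20 CPM (SD, n = 3) against 2.49 ± 0.782 and 2.73 ± 0.639 CPM in Gas. *Myh8*, the perinatal chain, overlapped between the muscles (log2 fold change -1.20, adjusted p = 0.164). These genes are close paralogs, and reads that fit more than 1 place were not counted.

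Per kilobase of exon, so that genes can be set side by side, *Myh4* held 87.9 ± 0.479% of the reads of the 4 adult chains in Gas (SD, n = 3) and 0.283 ± 0.252% in Sol. The order in Gas was *Myh4*, *Myh1* (8.09 ± 0.613%), *Myh2* (3.69 ± 0.643%) and *Myh7* (0.352 ± 0.158%), and no 2 neighbours in it overlapped between libraries. In Sol, *Myh2* came first at 52.0, 40.7 and 43.3%, above *Myh1* at 20.9, 33.5 and 27.9% and *Myh7* at 27.0, 25.1 and 28.6%. The *Myh1* and *Myh7* shares of Sol overlapped, with means of 27.4 and 26.9%, and did not differ beyond their spread.

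Nearly every fast contractile isoform was higher in Gas and nearly every slow isoform was higher in Sol. Of 15 fast isoforms, all tested, 12 were called higher in Gas and 0 higher in Sol, with a median log2 fold change of 2.15. Of 15 slow isoforms 13 were called higher in Sol and 0 higher in Gas, with a median of -3.61. The shares called were 80% and 86.7%, against 7.81% of all genes tested. The fast genes together took 17.9, 16.3 and 19.1% of the reads in the Gas libraries and 3.86, 5.95 and 3.74% in the Sol libraries, and the slow genes took 0.292, 0.294 and 0.448% in Gas and 3.70, 4.34 and 3.89% in Sol. The number of fast isoforms called ranged from 6 without Sol replicate 3 and 7 without Sol replicate 1 to 14 without Gas replicate 3, and that of slow isoforms from 11 to 15.

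In the thick filament, the myosin binding proteins differed widely. *Mybph*, myosin binding protein H (chr1:134193448-134201232), stood at 243, 171 and 27.8 CPM in Gas and 0.917, 1.47 and 0.824 CPM in Sol (log2 fold change 7.11 ± 0.86 SE, adjusted p = 0.00359). Gas replicate 3 had the lowest Gas level of *Mybph*, still far above Sol. *Mybpc2*, fast myosin binding protein C (chr7:44501699-44524656), stood at 7218, 6585 and 4483 CPM in Gas and 148, 474 and 306 CPM in Sol (log2 fold change 4.30 ± 0.48 SE, adjusted p = 0.00295). Its slow partner *Mybpc1* ran the other way, with 1363, 1234 and 951 CPM in Gas and 5249, 4189 and 5583 CPM in Sol (log2 fold change -2.08 ± 0.26 SE, adjusted p = 0.00406). The light chains split in the same manner. *Myl1*, the fast essential light chain, stood at 9170.1, 7366 and 8537 CPM in Gas and 2159, 2528 and 1746 CPM in Sol (log2 fold change 1.96 ± 0.26 SE, adjusted p = 0.00493). *Mylpf*, the fast regulatory light chain, stood at 13495, 10290.4 and 19839 CPM in Gas and 2639, 4313 and 1975 CPM in Sol (log2 fold change 2.29 ± 0.40 SE, adjusted p = 0.0141). *Myl3*, the slow essential light chain, stood at 271, 222 and 618 CPM in Gas and 4312, 6731 and 4111 CPM in Sol (log2 fold change -3.77 ± 0.47 SE, adjusted p = 0.00397, -4.36 without Gas replicate 3). *Myl6b*, a further slow light chain (chr10:128494157-128498685), stood at 6.78, 5.93 and 7.89 CPM in Gas and 109, 129 and 62.4 CPM in Sol (log2 fold change -3.87 ± 0.32 SE, adjusted p = 0.00134). Of the kinases that phosphorylate the regulatory light chain, *Mylk4* was higher in Gas (log2 fold change 2.85, adjusted p = 0.00258), as was *Mylk2* (1.5, adjusted p = 0.0146), and *Mylk3*, the cardiac kinase with a mean of 2.80 CPM in Sol, was higher in Sol (-2.74, adjusted p = 0.0237, and -3.39 without Gas replicate 2). The call was lost with 1 library left out for *Mylpf* (without Sol replicate 1 or 3, adjusted p up to 0.0881) and *Mylk2* (without Gas replicate 1 or Sol replicate 1 or 3, adjusted p up to 0.0881). Also lost was *Mylk3* (without Gas replicate 1 or Sol replicate 1 or 2, adjusted p up to 0.110).

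In the thin filament, the slow troponins were far higher in Sol, and the fast troponins were higher in every Gas library. *Tnnt1*, slow troponin T (chr7:4504570-4516382), stood at 122, 113 and 289 CPM in Gas and 2703, 4329 and 2789 CPM in Sol (log2 fold change -4.23 ± 0.47 SE, adjusted p = 0.00284). *Tnnt3*, its fast partner, stood at 30901, 24241 and 35437 CPM in Gas and 9474, 13586 and 8359 CPM in Sol (log2 fold change 1.53 ± 0.31 SE, adjusted p = 0.0246). *Tnnc1*, slow troponin C, stood at 59.8, 61.1 and 329.8 CPM in Gas and 1356, 2751 and 1375 CPM in Sol (log2 fold change -3.61 ± 0.75 SE, adjusted p = 0.0271). Gas replicate 3 held over 5 times the *Tnnc1* level of the other Gas libraries, and the fold change was -4.92 without it. *Tnni2*, fast troponin I, stood at 15200.2, 12432 and 37741 CPM in Gas and 4361, 8047 and 3507 CPM in Sol and like *Tnnc2* missed the threshold (log2 fold change 2.04 ± 0.52 SE, adjusted p = 0.0539). Both had their highest Gas level in replicate 3 and their highest Sol level in replicate 2, the library of highest ribosomal protein level in each muscle. Both were called without Gas replicate 3 (adjusted p = 0.0385 for *Tnnc2* and 0.0456 for *Tnni2*), where the log2 fold change of each came to 1.38. They were also called without Gas replicate 2 (adjusted p = 0.0409 and 0.0488). *Tpm3*, the slow tropomyosin (chr3:90072649-90100902), stood at 120.3, 134 and 285 CPM in Gas and 3120.3, 4465 and 3398 CPM in Sol (log2 fold change -4.35 ± 0.42 SE, adjusted p = 0.00209). *Tpm1*, the fast form, stood at 24067, 19259 and 33955 CPM in Gas and 5041, 7942 and 4462 CPM in Sol (log2 fold change 2.15 ± 0.36 SE, adjusted p = 0.0113). In the Z-disc, *Actn3*, the fast alpha-actinin (chr19:4861216-4877909), stood at 14729, 12938 and 5711 CPM in Gas and 61.9, 571 and 239 CPM in Sol (log2 fold change 5.26 ± 0.85 SE, adjusted p = 0.0103, 6.21 without Sol replicate 2). *Actn2*, which all fibers carry, stood at 1149.6, 1192 and 1058 CPM in Gas and 5490.0, 4561 and 5718 CPM in Sol (log2 fold change -2.21 ± 0.24 SE, adjusted p = 0.00258). *Myoz1*, a fast calcineurin-binding Z-disc protein, was higher in Gas (log2 fold change 2.52, adjusted p = 0.00258), as was *Myoz3* (1.00, adjusted p = 0.0311), and the slow *Myoz2* was higher in Sol (-2.91, adjusted p = 0.00189). Calls that rested on single libraries were *Tnnt3* (without Gas replicate 1 or Sol replicate 1 or 3, adjusted p up to 0.136) and *Tnnc1* (without Gas replicate 1 or 2 or Sol replicate 1, 2 or 3, adjusted p up to 0.0801). Also lost were *Tpm1* (without Sol replicate 1 or 3, adjusted p up to 0.0801) and *Actn3* (without Sol replicate 3, adjusted p = 0.0661). Also lost was *Myoz3* (without Gas replicate 1 or 2 or Sol replicate 1, 2 or 3, adjusted p up to 0.175).

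Isoform pairs were also compared by the share of 1 member in the reads per kilobase of both, and this share separated the muscles in all 12 pairs. The members of each pair ran in opposite directions. The separation therefore follows largely from the differences of the single genes and is no further evidence. The member is the slow isoform, except *Actn2*, which is not specific to slow fibers, and *Ldhb*, the lactate dehydrogenase subunit of oxidative tissue. In Gas the slow share was at most 1.24% in every library for troponin C, I and T, the regulatory light chain, tropomyosin and the SERCA pump, and the mean was largest for myosin binding protein C at 15.1 ± 0.900% (SD, n = 3). In Sol the slow member held the majority for myosin binding protein C (93.4 ± 4.11%), the essential light chain (76.2 ± 2.63%) and myozenin (75.0 ± 3.91%). *Actn2* held 94.4 ± 5.35% of alpha-actinin and *Ldhb* 60.9 ± 2.23% of lactate dehydrogenase there. In the same libraries it held a minority for troponin C (23.2 ± 1.25%), troponin I (19.7 ± 4.01%), troponin T (25.2 ± 1.51%), the SERCA pump (21.7 ± 3.36%) and calsequestrin (23.1 ± 5.64%), near the 26.9 ± 1.75% of *Myh7* among the adult heavy chains. Tropomyosin (48.0 ± 3.87%) and the regulatory light chain (42.2 ± 5.91%) lay between. The slow share in Sol thus differed widely from pair to pair.

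**Figure D2:**
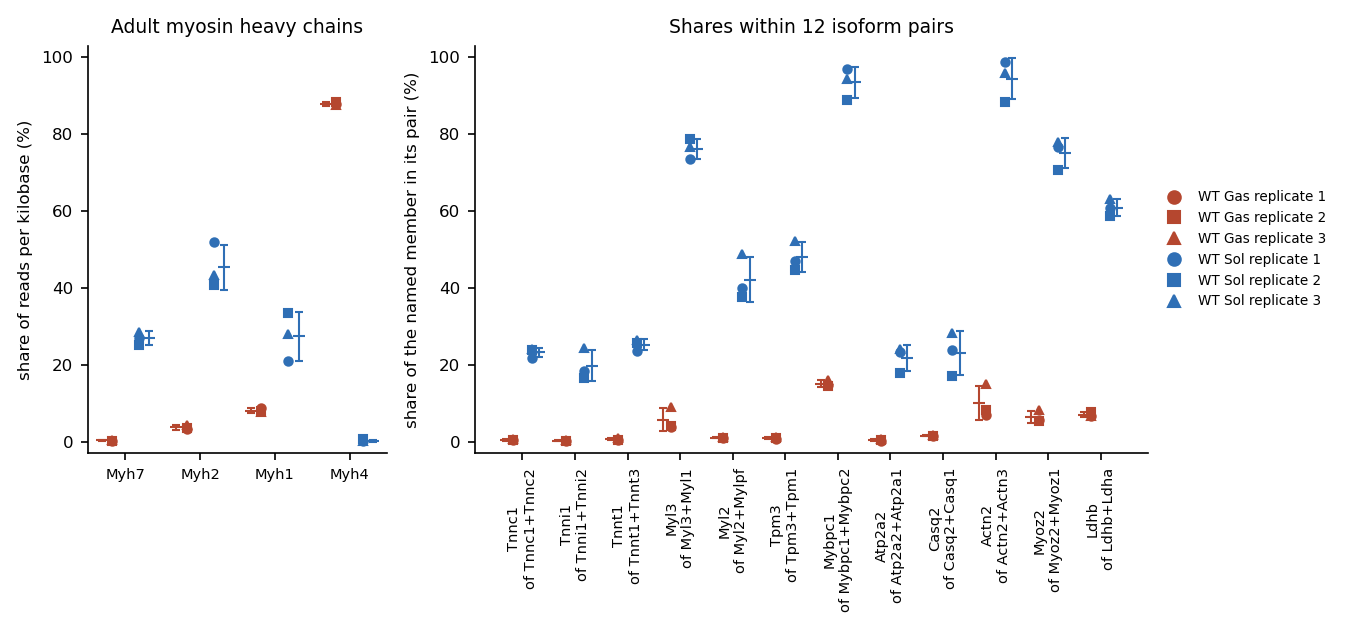
Left, share of each adult myosin heavy chain gene in the reads per kilobase of the 4 genes (%). Right, share of the gene named first in each of 12 isoform pairs (%), the slow isoform except for *Actn2* and *Ldhb*. Markers are libraries (Gas red, Sol blue, shape by replicate), horizontal bars are means and whiskers are SD (n = 3). The muscles did not overlap in any pair, which follows largely from the opposite differences of its members. Sol means of the slow isoforms ran from 19.7% for troponin I to 93.4% for myosin binding protein C.

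The promoters of 2 fast and 2 slow genes with opposite differences are shown because their transcripts moved against each other and each holds an MCAT element, the binding motif of TEAD factors known from muscle promoters. The 250 bases before the RefSeq start site (GRCm38.p6) are printed from 5′ to 3′ along the gene, with the MCAT letters CATTCC, or GGAATG where the element lies on the other strand, in capitals. The windows are chr11:67237562-67237811 on the plus strand for *Myh4*, chr7:44524670-44524919 on the minus strand for *Mybpc2*, chr14:54994627-54994876 on the minus strand for *Myh7*, which has 2 RefSeq windows, and chr14:31208062-31208311 on the plus strand for *Tnnc1*.
Myh4: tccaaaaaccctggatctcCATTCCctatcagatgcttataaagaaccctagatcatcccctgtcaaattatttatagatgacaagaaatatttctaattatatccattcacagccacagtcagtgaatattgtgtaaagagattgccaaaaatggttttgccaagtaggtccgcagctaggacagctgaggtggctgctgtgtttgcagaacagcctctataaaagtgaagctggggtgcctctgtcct
Mybpc2: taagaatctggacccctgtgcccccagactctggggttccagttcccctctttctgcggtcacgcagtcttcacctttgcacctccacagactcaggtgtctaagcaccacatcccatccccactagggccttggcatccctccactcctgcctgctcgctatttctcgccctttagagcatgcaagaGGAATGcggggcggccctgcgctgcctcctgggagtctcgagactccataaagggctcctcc
Myh7: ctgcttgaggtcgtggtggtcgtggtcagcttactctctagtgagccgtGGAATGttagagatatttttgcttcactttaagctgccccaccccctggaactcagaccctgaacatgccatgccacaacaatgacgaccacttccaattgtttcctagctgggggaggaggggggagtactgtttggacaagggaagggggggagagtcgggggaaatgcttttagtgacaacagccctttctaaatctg
Tnnc1: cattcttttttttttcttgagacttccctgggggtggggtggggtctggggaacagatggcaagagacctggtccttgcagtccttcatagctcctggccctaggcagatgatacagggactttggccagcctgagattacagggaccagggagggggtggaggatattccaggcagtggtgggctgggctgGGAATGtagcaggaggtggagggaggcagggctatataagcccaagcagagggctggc

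The element begins 231 bases before the start site of *Myh4*, 62 before that of *Mybpc2*, 201 before that of *Myh7* and 58 before that of *Tnnc1*. The bases from the RefSeq start site were found in a GENCODE transcript for *Myh7* and *Tnnc1* but not for *Myh4* and *Mybpc2*. Distances for the latter genes hold for the RefSeq start site only. *Myh4* also holds a CArG box, the motif of serum response factor, 104 bases before its start site. Searched on both strands over the whole RefSeq window, which runs on past the start site, an MCAT element was present in 14.7% of all 32851 promoter windows and a CArG box in 1.63%. Of the fast isoforms, 9 of 15 had a window and 6 of these held an MCAT element (*Mybpc2*, *Mybph*, *Myh1*, *Myh4*, *Myl1* and *Tpm1*), and of the slow isoforms 4 of 15 did (*Myh7*, *Myl3*, *Mylk3* and *Tnnc1*). Among called genes with a window, 12.8% of the 366 higher in Gas and 15.8% of the 393 higher in Sol held the element, against 14.7% of the 9846 tested genes with a window. These matches of letters say nothing of binding.

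Calcium handling differed at a few genes, most of them with large changes. Of 22 genes, 4 were called higher in Gas and 3 higher in Sol (31.8%, against 7.81% of all genes tested). The median log2 fold change was 0.56. *Pvalb*, parvalbumin, the calcium buffer of fast fibers (chr15:78191114-78206400), stood at 10011, 7387 and 24715 CPM in Gas and 55.0, 571 and 131 CPM in Sol (log2 fold change 5.80 ± 1.00 SE, adjusted p = 0.0140), and its Sol level varied more than 10-fold between libraries. It was 7.23 without Sol replicate 2 and 5.11 without Gas replicate 3. *Atp2a2*, the slow SERCA pump that returns calcium to the sarcoplasmic reticulum (chr5:122453513-122502225), stood at 150.4, 189.9 and 111 CPM in Gas and 6289, 4329 and 7161 CPM in Sol (log2 fold change -5.30 ± 0.37 SE, adjusted p = 0.000713). *Atp2a1*, the fast pump, stood at 37790.3, 32816 and 11249 CPM in Gas and 13716, 13077 and 14825 CPM in Sol (log2 fold change 0.98 ± 0.44 SE, adjusted p = 0.215). Gas replicate 3 lay below every Sol library for *Atp2a1*, which was called without it (adjusted p = 0.00793). *Sln*, sarcolipin, a small inhibitor of SERCA (chr9:53850164-53854560), stood at 4.32, 5.88 and 11.5 CPM in Gas and 146, 188 and 186 CPM in Sol (log2 fold change -4.61 ± 0.40 SE, adjusted p = 0.00143). *Casq2*, the slow calsequestrin that stores calcium, stood at 41.8, 39.1 and 42.6 CPM in Gas and 346, 282 and 333 CPM in Sol (log2 fold change -2.96 ± 0.21 SE, adjusted p = 0.000713). *Casq1*, the fast form, stood at 2137, 1759 and 1663 CPM in Gas and 802, 985 and 607 CPM in Sol (log2 fold change 1.22 ± 0.26 SE, adjusted p = 0.0310). *Cacng1*, the gamma subunit of the voltage-sensing calcium channel (log2 fold change 1.89, adjusted p = 0.00537), and *Calm3*, a calmodulin gene (1.42, adjusted p = 0.00954), were higher in Gas. The other 15 genes were not called. The count higher in Gas was 8 without Gas replicate 3, 2 without Gas replicate 1 or Sol replicate 1, 1 without Sol replicate 3 and 12 in the 4-library set. Calls were lost for *Pvalb* (without Sol replicate 3, adjusted p = 0.0749) and *Casq1* (without Gas replicate 1 or 2 or Sol replicate 1 or 3, adjusted p up to 0.166). Also lost was *Calm3* (without Gas replicate 1 or Sol replicate 1 or 3, adjusted p up to 0.0829).

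Among 15 genes of membrane excitability, 2 were called higher in Gas and 4 higher in Sol (40%, against 7.81% of all genes tested). Their median of -0.41 became 0.10 with a covariate for ribosomal protein level. The beta subunits of the sodium pump split by isoform. *Atp1b2*, a beta subunit, stood at 246, 232 and 104 CPM in Gas and 18.4, 22.7 and 22.9 CPM in Sol (log2 fold change 3.18 ± 0.36 SE, adjusted p = 0.00295). *Atp1b1*, the other beta subunit, stood at 93.5, 129 and 81.4 CPM in Gas and 589, 385 and 380.1 CPM in Sol (log2 fold change -2.15 ± 0.29 SE, adjusted p = 0.00521). The 2 beta isoforms thus ran in opposite directions without overlap. *Kcnc4*, a fast voltage-gated potassium channel, stood at 57.5, 45.0 and 39.7 CPM in Gas and 8.96, 11.8 and 10.2 CPM in Sol (log2 fold change 2.20 ± 0.23 SE, adjusted p = 0.00236), and the calcium-activated channel *Kcnma1* was higher in Sol (log2 fold change -1.57, adjusted p = 0.0499). The other 9 genes were not called. The count higher in Sol was 1 without Gas replicate 1, Gas replicate 2, Sol replicate 1 or Sol replicate 3, and that higher in Gas was 5 with the covariate. The call was lost with 1 library left out for *Kcnma1* (without Gas replicate 1, 2 or 3 or Sol replicate 1 or 3, adjusted p up to 0.199).

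Genes of glycolysis and glycogen use were mostly higher in Gas. Of 32 genes, 18 were called higher in Gas and 3 higher in Sol (65.6%, against 7.81% of all genes tested). The median log2 fold change was 1.52. Every step from aldolase to lactate dehydrogenase had a called gene, with *Aldoa* (log2 fold change 2.12, adjusted p = 0.00541), *Tpi1* (1.67), *Gapdh* (1.63), *Pgk1* (1.51), *Pgam2* (1.68), *Eno3* (2.0), *Pkm* (1.53) and *Ldha* (2.08). *Pfkfb3*, which makes the activator of phosphofructokinase (chr2:11471433-11554077), stood at 743, 646 and 134 CPM in Gas and 7.89, 17.2 and 20.5 CPM in Sol (log2 fold change 5.06 ± 0.71 SE, adjusted p = 0.00603), the largest difference of the list. *Fbp2*, muscle fructose bisphosphatase, stood at 175, 126 and 213 CPM in Gas and 14.4, 26.8 and 14.6 CPM in Sol (log2 fold change 3.21 ± 0.34 SE, adjusted p = 0.00258). *Slc16a3*, the lactate exporter MCT4, stood at 599, 559 and 284 CPM in Gas and 57.9, 78.0 and 41.4 CPM in Sol (log2 fold change 3.03 ± 0.38 SE, adjusted p = 0.00395). *Slc16a1*, the lactate importer MCT1, stood at 38.7, 51.6 and 65.8 CPM in Gas and 191, 128 and 152 CPM in Sol (log2 fold change -1.59 ± 0.27 SE, adjusted p = 0.0130). *Ldhb*, the lactate dehydrogenase subunit of oxidative tissue, stood at 164, 166 and 236 CPM in Gas and 814, 1058 and 879.9 CPM in Sol (log2 fold change -2.28 ± 0.25 SE, adjusted p = 0.00292). Both the lactate transporters and the lactate dehydrogenase subunits thus ran in opposite directions. *Gpd1*, which links glycolysis to the glycerol phosphate shuttle, stood at 821, 808 and 342 CPM in Gas and 82.4, 99.8 and 66.4 CPM in Sol (log2 fold change 2.99 ± 0.39 SE, adjusted p = 0.00439). For glycogen, the phosphorylase *Pygm* (1.96) and the phosphorylase kinase subunits *Phka1* (1.53), *Phkb* (1.83) and *Phkg1* (2.73, adjusted p = 0.00311) were higher in Gas and the branching enzyme *Gbe1* was higher in Sol (-1.35, adjusted p = 0.00720). The glycogen synthase *Gys1* (-0.91, adjusted p = 0.125), the hexokinase *Hk2* (-0.61, adjusted p = 0.132) and the glucose transporter *Slc2a4* (0.20, adjusted p = 0.632) were not called, but *Hk2* was called without Gas replicate 3 (adjusted p = 0.0374). Without 1 library the number called higher in Gas in this list ranged from 9 without Sol replicate 3 and 10 without Sol replicate 1 to 21 without Gas replicate 3. The count higher in Sol was 6 without Gas replicate 3, 2 without Sol replicate 1 or Sol replicate 3, and 1 without Gas replicate 1. Of the genes named, the call was lost for *Tpi1* (without Sol replicate 1 or 3, adjusted p up to 0.0648) and *Gapdh* (without Gas replicate 1 or Sol replicate 1 or 3, adjusted p up to 0.0992). Also lost were *Pgk1* (without Sol replicate 1 or 3, adjusted p up to 0.0587) and *Pgam2* (without Gas replicate 1 or Sol replicate 1 or 3, adjusted p up to 0.202). Also lost were *Pkm* (without Sol replicate 1 or 3, adjusted p up to 0.0694) and *Ldha* (without Sol replicate 1 or 3, adjusted p up to 0.0525). Also lost were *Pygm* (without Gas replicate 1 or Sol replicate 1 or 3, adjusted p up to 0.0843) and *Phka1* (without Sol replicate 3, adjusted p = 0.0842). Also lost were *Slc16a1* (without Gas replicate 1 or Sol replicate 1 or 3, adjusted p up to 0.0637) and *Gbe1* (without Gas replicate 1, adjusted p = 0.0514).

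Fatty acid use ran toward Sol. Of 25 genes, 17 were called higher in Sol and 0 higher in Gas (68%, against 7.81% of all genes tested). The median log2 fold change was -1.12. The uptake of fatty acids was represented by *Lpl*, lipoprotein lipase, at 693, 706 and 1343 CPM in Gas and 3655, 3277 and 3719 CPM in Sol (log2 fold change -1.96 ± 0.32 SE, adjusted p = 0.0112), by the transporter *Cd36* at 524, 642 and 493 CPM in Gas and 2337, 1310.4 and 2245 CPM in Sol (log2 fold change -1.83 ± 0.29 SE, adjusted p = 0.0102) and by the carrier *Fabp3* at 249, 298 and 480.1 CPM in Gas and 909, 1024 and 960.3 CPM in Sol (log2 fold change -1.49 ± 0.29 SE, adjusted p = 0.0215). Each Sol library exceeded each Gas library in all of them. *Acsl1*, which activates fatty acids, stood at 312, 383 and 228 CPM in Gas and 1119, 637 and 1030.4 CPM in Sol (log2 fold change -1.59 ± 0.31 SE, adjusted p = 0.0215). In the mitochondrial oxidation of fatty acids, the trifunctional enzyme subunits were called, *Hadhb* at 125, 141 and 136 CPM in Gas and 494, 349 and 458 CPM in Sol (log2 fold change -1.70 ± 0.22 SE, adjusted p = 0.00485) and *Hadha* with a log2 fold change of -1.59, adjusted p = 0.0264. The acyl-CoA dehydrogenases *Acadvl* (-0.93), *Acadl* (-1.16) and *Acadm* (-1.07) were called with smaller differences. *Cpt1b*, the entry step of oxidation, was not called (-1.32, adjusted p = 0.160). The list was sensitive to single libraries, with 2 members called without Gas replicate 1, 3 without Sol replicate 1, 3 without Sol replicate 3, 8 without Gas replicate 2 and 19 without Gas replicate 3. Among the members named, the call was lost for *Lpl* (without Gas replicate 1 or Sol replicate 1 or 3, adjusted p up to 0.0587) and *Cd36* (without Gas replicate 1 or Sol replicate 1 or 3, adjusted p up to 0.0615). Also lost were *Fabp3* (without Gas replicate 1 or 2 or Sol replicate 1, 2 or 3, adjusted p up to 0.0940) and *Acsl1* (without Gas replicate 1 or Sol replicate 1 or 3, adjusted p up to 0.106). Also lost were *Hadha* (without Gas replicate 1 or Sol replicate 1 or 3, adjusted p up to 0.121) and *Acadvl* (without Gas replicate 1 or 2 or Sol replicate 1, 2 or 3, adjusted p up to 0.161). Also lost were *Acadl* (without Gas replicate 1 or 2 or Sol replicate 1 or 3, adjusted p up to 0.0844) and *Acadm* (without Gas replicate 1 or 2 or Sol replicate 1 or 3, adjusted p up to 0.114).

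The number of called genes in the terminal oxidative pathways depended on the libraries and the test. Of 25 genes of the TCA cycle, 14 had an unadjusted p under 0.05, against 24.7% of all genes tested. The muscles did not overlap for 16 of the 25, against 30.9% of all genes tested. *Idh2* alone was called (4%, against 7.81% of all genes tested), higher in Sol, and the median log2 fold change of the list was -0.53. The count higher in Sol was 6 without Gas replicate 3, 8 with DESeq2, 9 with a covariate for ribosomal protein level, 13 with all 16 libraries in 1 fit and 19 in the 4-library set, and 0 genes were called higher in Gas in any of these. *Idh2*, the mitochondrial NADP isocitrate dehydrogenase, stood at 299, 285 and 272 CPM in Gas and 1291, 1725 and 1835 CPM in Sol (log2 fold change -2.50 ± 0.24 SE, adjusted p = 0.00202), with tight values in Gas. *Cs*, citrate synthase, stood at 712, 759 and 317 CPM in Gas and 1207, 882 and 1073 CPM in Sol (log2 fold change -0.82 ± 0.35 SE, adjusted p = 0.196), with Gas replicate 3 well below the other Gas libraries, and -0.52 without it. Of 61 respiratory chain subunits tested, 2 were called, both higher in Sol, *Uqcrc2* of complex III (-1.01, adjusted p = 0.0366) and *Ndufs1* of complex I (-0.84, adjusted p = 0.0420). These were 3.28% of the subunits tested, against 7.81% of all genes tested. The median of the respiratory chain list was 0.39, toward Gas, and turned to -0.12 without Gas replicate 3, to -0.54 with a covariate for ribosomal protein level and to -0.17 with offsets for transcript length and GC content. The covariate gave 18 called subunits and the offsets 8, all higher in Sol, and the 4-library set gave 20 higher in Gas and 7 in Sol. With any 1 library other than Gas replicate 3 left out, 0 subunits were called. *Ndufs5* was listed at 0 in every library and was not tested. Oxygen and phosphate buffering showed 3 called genes of 12 (25%, against 7.81% of all genes tested). *Mb*, myoglobin, stood at 3033, 3025 and 4844 CPM in Gas and 10431, 13396 and 9025 CPM in Sol (log2 fold change -1.59 ± 0.31 SE, adjusted p = 0.0209). *Ckm*, the cytosolic creatine kinase of muscle, stood at 18138, 14884 and 15478 CPM in Gas and 4954, 7375 and 5002 CPM in Sol (log2 fold change 1.48 ± 0.28 SE, adjusted p = 0.0187). *Ak1*, adenylate kinase, was higher in Gas at the threshold (0.91, adjusted p = 0.0499). The median of this list, 0.05, lay near 0 and changed sign under 8 of 18 alternatives. Without Gas replicate 1, Sol replicate 1 or Sol replicate 3, 0 genes of it were called. Calls were lost for *Uqcrc2* (without Gas replicate 1 or 2 or Sol replicate 1, 2 or 3, adjusted p up to 0.172) and *Ndufs1* (without Gas replicate 1 or 2 or Sol replicate 1, 2 or 3, adjusted p up to 0.202). Also lost were *Mb* (without Gas replicate 1 or 2 or Sol replicate 1 or 3, adjusted p up to 0.0920) and *Ckm* (without Gas replicate 1 or Sol replicate 1 or 3, adjusted p up to 0.116). Also lost was *Ak1* (without Gas replicate 1 or 2 or Sol replicate 1 or 3, adjusted p up to 0.252).

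**Figure D3:**
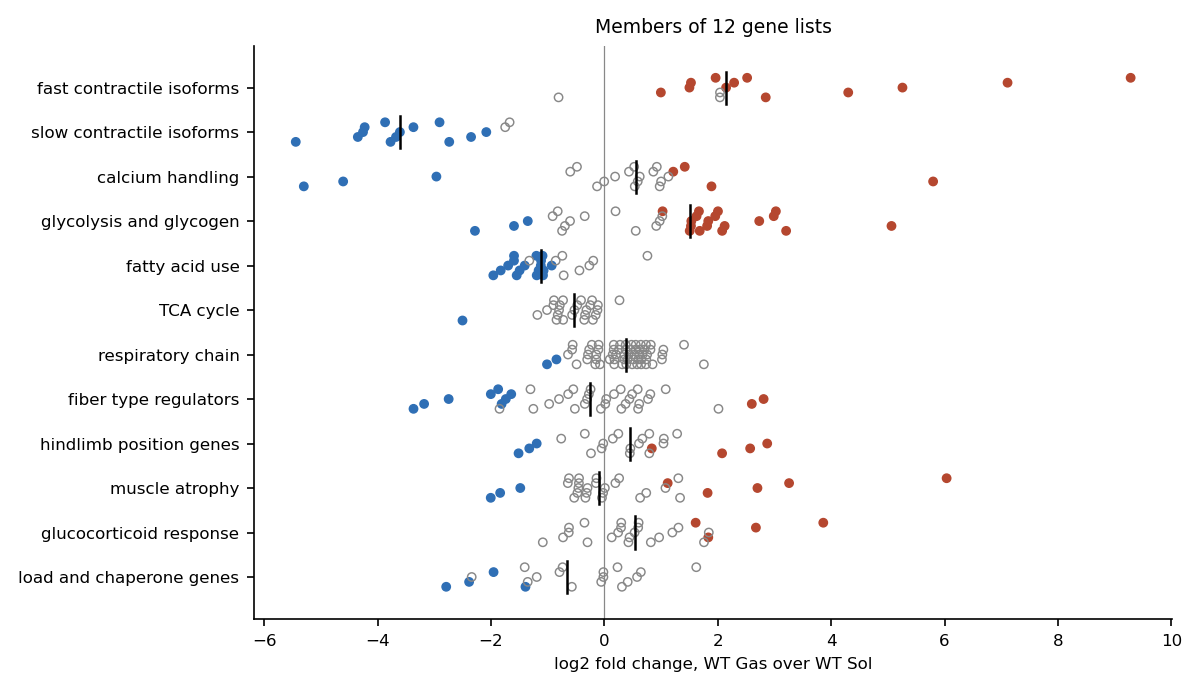
Log2 fold change, WT Gas over WT Sol, of each tested member of 12 gene lists. Filled red and blue points are called genes higher in Gas and in Sol, open points were not called, and black bars are list medians. The fast contractile list centres on 2.15 and the slow list on -3.61, while the respiratory chain has 2 called members of 61, a count that was 18 with the ribosomal protein covariate.

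Of 38 regulators of fiber type, 2 were called higher in Gas and 8 higher in Sol (26.3%, against 7.81% of all genes tested). Their median log2 fold change of -0.26 became 0.32 with a covariate for ribosomal protein level and 0.08 without Gas replicate 3. The balance of the counts was not stable, with 9 higher in Gas and 7 in Sol under the covariate and 9 and 15 in the 4-library set. It was 5 and 9 without Gas replicate 3, 1 and 3 without Sol replicate 1, 1 and 5 without Gas replicate 1 or Sol replicate 3, and 1 and 9 without Sol replicate 2. The factors higher in Gas were large Maf factors. *Maf*, known to promote type IIB fibers (chr8:115682942-115707794), stood at 139.7, 147 and 131 CPM in Gas and 15.9, 31.0 and 21.9 CPM in Sol (log2 fold change 2.60 ± 0.28 SE, adjusted p = 0.00258). *Mafa*, of the same family, stood at 54.5, 36.7 and 11.2 CPM in Gas and 4.43, 6.84 and 3.46 CPM in Sol (log2 fold change 2.81 ± 0.56 SE, adjusted p = 0.0229). The Gas values of *Maf* lay close together, and those of *Mafa* spread widely, with replicate 3 lowest. Of the ERR orphan receptors, which drive oxidative genes, *Esrrg* and *Esrrb* were higher in Sol. *Esrrg*, the gene of ERRγ (chr1:187608791-188214885), stood at 29.2, 28.8 and 13.8 CPM in Gas and 314, 142 and 197 CPM in Sol (log2 fold change -3.18 ± 0.41 SE, adjusted p = 0.00439). *Esrrb* stood at 4.77, 9.93 and 3.24 CPM in Gas and 48.8, 32.8 and 40.3 CPM in Sol (log2 fold change -2.75 ± 0.41 SE, adjusted p = 0.00736, -3.34 without Gas replicate 2). *Esrra* was not called (log2 fold change -0.55, adjusted p = 0.185). Among their known partners were *Ppargc1a*, the gene of PGC-1α, at 31.4, 27.7 and 20.2 CPM in Gas and 127, 98.2 and 53.5 CPM in Sol (log2 fold change -1.81 ± 0.34 SE, adjusted p = 0.0196) and *Perm1*, its muscle target, at 154, 160.2 and 86.2 CPM in Gas and 577, 383 and 509 CPM in Sol (log2 fold change -1.87 ± 0.31 SE, adjusted p = 0.0111). *Ppara*, a receptor for fatty acids, stood at 39.5, 27.7 and 16.1 CPM in Gas and 121, 107 and 107 CPM in Sol (log2 fold change -2.0 ± 0.32 SE, adjusted p = 0.0103), while *Ppard*, its relative, overlapped between the muscles (0.29, adjusted p = 0.550). The call was lost with 1 library left out for *Mafa* (without Gas replicate 1 or Sol replicate 1, 2 or 3, adjusted p up to 0.118) and *Ppargc1a* (without Gas replicate 1 or 2 or Sol replicate 1 or 2, adjusted p up to 0.0828). Also lost were *Perm1* (without Sol replicate 1 or 3, adjusted p up to 0.0617) and *Ppara* (without Sol replicate 1, adjusted p = 0.0545).

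The other called regulators were also higher in Sol. *Prox1*, a homeobox factor of slow fibers with a mean of 8.14 ± 5.48 CPM in Sol (SD, n = 3) and 0.776 ± 0.217 CPM in Gas, was called (log2 fold change -3.37 ± 0.64 SE, adjusted p = 0.0199) and varied from 2.28 to 13.1 CPM within Sol. *Vgll2*, a cofactor of TEAD factors, stood at 79.9, 78.3 and 70.6 CPM in Gas and 263, 276 and 175 CPM in Sol (log2 fold change -1.64 ± 0.24 SE, adjusted p = 0.00712). *Rcan1*, a calcineurin target, stood at 68.8, 75.4 and 72.1 CPM in Gas and 406, 160.2 and 155 CPM in Sol (log2 fold change -1.74 ± 0.39 SE, adjusted p = 0.0362), with Sol replicate 1 far above the others, and the difference was -1.13 without it. *Sox6*, known for the fast program, stood at 132, 148 and 102 CPM in Gas and 95.3, 45.1 and 83.3 CPM in Sol, higher in every Gas library, and was not called (log2 fold change 0.77, adjusted p = 0.173, and 0.51 without Sol replicate 2). The call was also lost for *Prox1* (without Gas replicate 1 or Sol replicate 1 or 3, adjusted p up to 0.0793) and *Rcan1* (without Gas replicate 1 or 2 or Sol replicate 1 or 3, adjusted p up to 0.117).

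**Figure D4:**
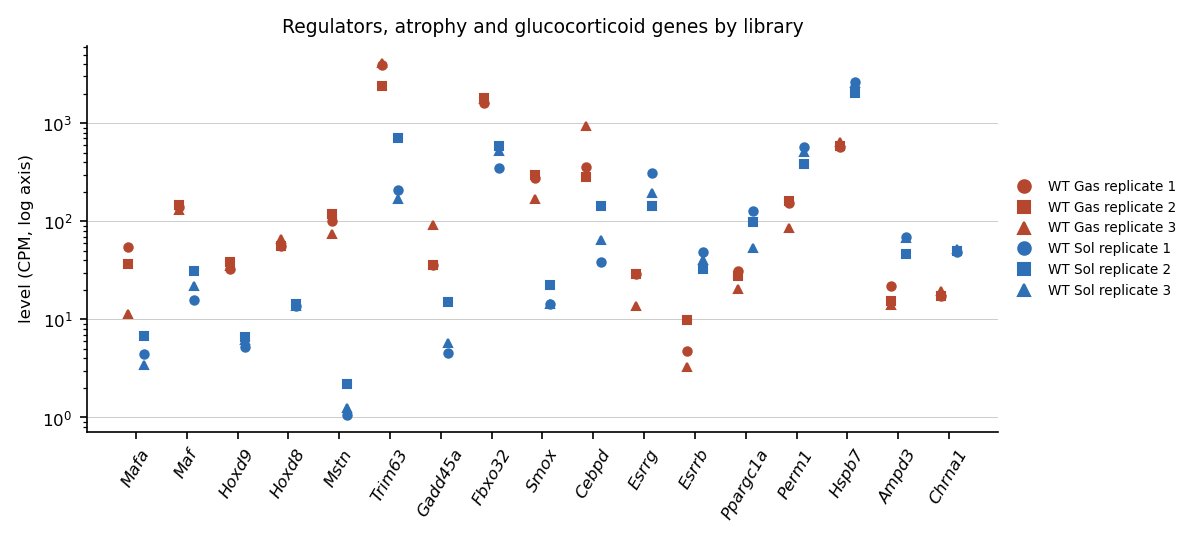
Level of 17 regulators, position genes, atrophy genes and glucocorticoid targets in each library (CPM, log axis), Gas red and Sol blue, shape by replicate. All 17 were called, and no called gene overlapped between the muscles. *Mstn* stood at 74.7 CPM or more in Gas and 2.21 CPM or less in Sol.

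Some genes that mark position along the limb also differed. Of 23 tested, 4 were called higher in Gas and 3 higher in Sol (30.4%, against 7.81% of all genes tested). The median log2 fold change was 0.46. The count higher in Gas was 3 to 6 with 1 library left out, 6 without Gas replicate 3. That higher in Sol was 2 without Gas replicate 2, 1 without Gas replicate 1, Sol replicate 1 or Sol replicate 2, and 0 without Sol replicate 3. All 3 tested HoxD genes of the list were higher in Gas. *Hoxd9* (chr2:74697727-74700208) stood at 32.7, 38.6 and 35.2 CPM in Gas and 5.25, 6.57 and 6.10 CPM in Sol (log2 fold change 2.57 ± 0.20 SE, adjusted p = 0.00103). *Hoxd8* stood at 55.5, 55.9 and 65.9 CPM in Gas and 13.8, 14.3 and 13.8 CPM in Sol (log2 fold change 2.08 ± 0.19 SE, adjusted p = 0.00152), with Sol values close together for each gene. *Hoxd10*, at low level, stood at 3.92, 4.85 and 4.0 CPM in Gas and 0.815, 0.268 and 0.604 CPM in Sol (log2 fold change 2.87 ± 0.39 SE, adjusted p = 0.00507). These genes sit side by side, and the counting did not use strand, so reads of overlapping transcripts cannot be told apart. Among the other clusters *Hoxc10* was called (0.84, adjusted p = 0.0309). *Six2*, a homeobox gene outside the list (chr17:85684277-85688274), stood at 17.4, 18.4 and 15 CPM in Gas and 0.509, 0.804 and 0.275 CPM in Sol (log2 fold change 5.01 ± 0.36 SE, adjusted p = 0.000713) and was among the largest differences of the comparison. Among the genes higher in Sol were *Pitx3*, a homeobox factor of muscle development (log2 fold change -1.32, adjusted p = 0.0397), and *Tbx3*, a T-box factor of the limb (-1.19, adjusted p = 0.0229). The smaller differences were lost with 1 library left out, for *Hoxc10* (without Gas replicate 1 or 2 or Sol replicate 1, 2 or 3, adjusted p up to 0.181) and *Pitx3* (without Gas replicate 1 or 2 or Sol replicate 2 or 3, adjusted p up to 0.115). Also lost was *Tbx3* (without Gas replicate 1 or Sol replicate 1, 2 or 3, adjusted p up to 0.110).

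Called muscle atrophy genes lay on both sides. Of 30, all tested, 5 were called higher in Gas and 3 higher in Sol (26.7%, against 7.81% of all genes tested). The median log2 fold change was -0.09 and became 0.08 with a covariate for ribosomal protein level. The count higher in Gas was 3 without Gas replicate 1 and 2 without Sol replicate 1 or Sol replicate 3, and 6 genes were called on each side with the covariate. *Mstn*, myostatin, a secreted inhibitor of muscle growth (chr1:53061640-53068079), stood at 101, 120.0 and 74.7 CPM in Gas and 1.07, 2.21 and 1.26 CPM in Sol (log2 fold change 6.04 ± 0.37 SE, adjusted p = 0.000466), a 65.7-fold difference. *Trim63*, the ubiquitin ligase MuRF1, stood at 3958, 2418 and 4109 CPM in Gas and 211, 716 and 169 CPM in Sol (log2 fold change 3.26 ± 0.59 SE, adjusted p = 0.0169), with Sol replicate 2 over 3 times the other Sol libraries, and the difference was 4.2 without it. *Fbxo32*, the ubiquitin ligase atrogin-1, stood at 1608, 1793 and 1756 CPM in Gas and 352, 588 and 519.9 CPM in Sol (log2 fold change 1.82 ± 0.26 SE, adjusted p = 0.00639). Both ligases were thus higher in every Gas library. *Gadd45a*, a stress gene of denervated and fasted muscle, stood at 35.8, 35.5 and 92.8 CPM in Gas and 4.58, 14.9 and 5.77 CPM in Sol (log2 fold change 2.70 ± 0.57 SE, adjusted p = 0.0281), and came to 2.09 without Gas replicate 3 and 3.39 without Sol replicate 2. *Trim54*, the related ligase MuRF3, was also higher in Gas (log2 fold change 1.12, adjusted p = 0.0425). The other 3 called genes were higher in Sol. *Hspb7*, a small heat shock protein, stood at 574, 590.0 and 645 CPM in Gas and 2623, 2040.2 and 2592 CPM in Sol (log2 fold change -2.0 ± 0.23 SE, adjusted p = 0.00316). *Ampd3*, an AMP deaminase, stood at 21.8, 15.3 and 14 CPM in Gas and 69.2, 46.9 and 67.5 CPM in Sol (log2 fold change -1.84 ± 0.26 SE, adjusted p = 0.00607). *Chrna1*, the acetylcholine receptor alpha subunit, stood at 17.2, 17.2 and 19.7 CPM in Gas and 48.8, 50.3 and 51.7 CPM in Sol (log2 fold change -1.48 ± 0.18 SE, adjusted p = 0.00363). *Foxo1*, a factor that drives the ligases, overlapped between the muscles at 316, 96.5 and 233 CPM in Gas and 41.1, 147 and 73.3 CPM in Sol (log2 fold change 1.30 ± 0.55 SE, adjusted p = 0.189, and 1.91 without Sol replicate 2). *Sqstm1*, an autophagy receptor, was not called (log2 fold change 0.74, adjusted p = 0.0758) but passed without Gas replicate 3 (adjusted p = 0.0410). Calls were lost for *Trim63* (without Gas replicate 1 or Sol replicate 1 or 3, adjusted p up to 0.0865) and *Gadd45a* (without Sol replicate 1 or 3, adjusted p up to 0.131). Also lost was *Trim54* (without Gas replicate 1 or 2 or Sol replicate 1 or 3, adjusted p up to 0.210).

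Glucocorticoid-responsive genes that were called were all higher in Gas, 4 of 25 tested, with 0 higher in Sol and a median log2 fold change of 0.53. The share called was 16%, against 7.81% of all genes tested. The count was 1 without Sol replicate 1 or Sol replicate 3, 2 without Gas replicate 1, 6 without Gas replicate 3 and 12 in the 4-library set, and with the ribosomal protein covariate 3 were higher in Gas and 1 in Sol. *Smox*, spermine oxidase, stood at 279, 296 and 169.6 CPM in Gas and 14.5, 22.5 and 14.3 CPM in Sol (log2 fold change 3.86 ± 0.33 SE, adjusted p = 0.00143). *Cebpd*, a transcription factor induced by glucocorticoids, stood at 359, 281 and 940.0 CPM in Gas and 38.5, 145 and 64.4 CPM in Sol (log2 fold change 2.67 ± 0.62 SE, adjusted p = 0.0400), with its highest Gas level in replicate 3 and its highest Sol level in replicate 2, and came to 1.95 and 3.35 without each of them. *Lcn2*, lipocalin, stood at 54.4, 64.2 and 40.3 CPM in Gas and 15.2, 19.6 and 9.94 CPM in Sol (log2 fold change 1.83 ± 0.30 SE, adjusted p = 0.0112). *Glul*, glutamine synthetase, which exports nitrogen from wasting muscle, stood at 1851, 916 and 1642 CPM in Gas and 351, 606 and 487 CPM in Sol (log2 fold change 1.61 ± 0.34 SE, adjusted p = 0.0290). The receptor and some of its targets did not reach the threshold with all 6 libraries. *Nr3c1*, the glucocorticoid receptor, stood at 114, 116 and 133 CPM in Gas and 109, 71.5 and 90.3 CPM in Sol (log2 fold change 0.42 ± 0.22 SE, adjusted p = 0.278). *Fkbp5*, a target of the receptor, stood at 497, 418 and 352 CPM in Gas and 236, 303 and 299 CPM in Sol (log2 fold change 0.60 ± 0.23 SE, adjusted p = 0.160). Both were higher in every Gas library, and 30.9% of all genes tested had no overlap in either direction. *Tsc22d3* (1.76, adjusted p = 0.0623), *Klf15* (0.44, adjusted p = 0.464) and *Pdk4* (-0.63, adjusted p = 0.234) were not called. *Fkbp5* was called without Gas replicate 3 (adjusted p = 0.0498) and *Tsc22d3* without Sol replicate 2 (adjusted p = 0.0377), and both were called in the 4-library set. *Nr3c1* came to 0.28 without Sol replicate 2. *Amd1* was listed at 0 in every library. Leaving out 1 library removed the call of *Cebpd* (without Gas replicate 1 or Sol replicate 1 or 3, adjusted p up to 0.176) and *Lcn2* (without Sol replicate 1 or 3, adjusted p up to 0.0691). Also lost was *Glul* (without Gas replicate 1 or Sol replicate 1 or 3, adjusted p up to 0.142). With no untreated muscle, these levels do not separate a response to Dex from the fast or from the level of each muscle without Dex.

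Load-responsive and chaperone genes were called toward Sol, 4 of 20, with 0 toward Gas and a median log2 fold change of -0.65. The share called was 20%, against 7.81% of all genes tested. The count was 2 without Sol replicate 1 or Sol replicate 3, 6 without Gas replicate 3, 7 without Sol replicate 2 and 9 with DESeq2, and the 4-library set gave 11 toward Sol and 2 toward Gas. *Fhl1*, a LIM protein of the sarcomere, stood at 959, 947 and 848 CPM in Gas and 5377, 4224 and 4785 CPM in Sol (log2 fold change -2.39 ± 0.24 SE, adjusted p = 0.00226). *Fhl2*, its cardiac relative, stood at 1.71, 1.60 and 2.05 CPM in Gas and 15, 13.6 and 8.13 CPM in Sol (log2 fold change -2.79 ± 0.31 SE, adjusted p = 0.00287). *Hspb6*, a small heat shock protein, stood at 765, 758 and 367 CPM in Gas and 2498, 2208 and 2618 CPM in Sol (log2 fold change -1.95 ± 0.33 SE, adjusted p = 0.0121). *Nrap*, which anchors actin at the fiber end, stood at 1544, 1617 and 1181 CPM in Gas and 4058, 2901 and 4428 CPM in Sol (log2 fold change -1.39 ± 0.27 SE, adjusted p = 0.0215). The muscles did not overlap for any of the 4, as for all called genes. *Cryab*, a small heat shock protein (log2 fold change -1.35, adjusted p = 0.0517), and *Xirp1*, an actin-binding protein (-2.34, adjusted p = 0.0637), were higher in every Sol library but were not called with all 6 libraries. *Cryab* was called without Gas replicate 3 (adjusted p = 0.00182) and under 9 other alternatives. *Xirp1* was called without Sol replicate 2 (adjusted p = 0.0196) and came to -1.52 without Sol replicate 1. The call was lost for *Hspb6* (without Sol replicate 1 or 3, adjusted p up to 0.0650) and *Nrap* (without Gas replicate 1 or 2 or Sol replicate 1 or 3, adjusted p up to 0.114).

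Other large differences lay outside the lists. *Mss51*, a protein tied to mitochondria in fast muscle (chr14:20482867-20496901), stood at 60.1, 46.4 and 72.2 CPM in Gas and 0.204, 0.872 and 0.659 CPM in Sol (log2 fold change 6.71 ± 0.46 SE, adjusted p = 0.000713). *Flrt1*, a membrane adhesion protein (chr19:7092001-7105729), stood at 60.2, 43.1 and 75.6 CPM in Gas and 1.07, 2.75 and 0.714 CPM in Sol (log2 fold change 5.32 ± 0.51 SE, adjusted p = 0.00202, 6.04 without Sol replicate 2). *Kcnf1*, a modifying subunit of voltage-gated potassium channels (chr12:17172100-17176888), stood at 98.3, 28.2 and 10.8 CPM in Gas and 0.764, 1.41 and 0.604 CPM in Sol (log2 fold change 5.65 ± 0.88 SE, adjusted p = 0.00879), and its Gas level varied widely, highest in replicate 1, without which the difference was 4.41. Toward Sol, *Tecrl*, a protein of the endoplasmic reticulum known from the heart (chr5:83278145-83355195), stood at 0.201, 0.285 and 0.216 CPM in Gas and 24.8, 23.3 and 34.1 CPM in Sol (log2 fold change -6.82 ± 0.33 SE, adjusted p = 0.000418). This was the largest difference toward Sol, 113-fold, where the Gas libraries held 4, 5 and 2 reads and the Sol libraries 487, 347 and 621. *Sv2b*, a synaptic vesicle glycoprotein (chr7:75114894-75309262), stood at 1.76, 2.68 and 2.49 CPM in Gas and 63.4, 23.5 and 34.9 CPM in Sol (log2 fold change -4.14 ± 0.43 SE, adjusted p = 0.00236). *Npr3*, the clearance receptor of natriuretic peptides (chr15:11839896-11907287), stood at 8.29, 10.9 and 7.02 CPM in Gas and 168, 83.3 and 176 CPM in Sol (log2 fold change -4.02 ± 0.36 SE, adjusted p = 0.00152). Of these genes the call was lost only for *Kcnf1* (without Sol replicate 1 or 3, adjusted p up to 0.0616).

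Few markers of other cell types were called with all 6 libraries. No marker was called among 8 each of endothelial, smooth muscle, tendon, adipocyte and Schwann cells, 7 tested satellite cell markers and 5 tested neutrophil and blood markers, and the share of all genes called was 7.81%. Without Gas replicate 3 there was 1 call each among smooth muscle, tendon and satellite cell markers, and the 4-library set called 1 to 4 markers of each of these cell types but adipocytes, including 4 of tendon higher in Sol and 4 of Schwann cells higher in Gas. Of 8 macrophage markers 3 were called, all higher in Gas, *C1qa* (log2 fold change 1.83, adjusted p = 0.0368), *C1qb* (1.21, adjusted p = 0.0307) and *Cd163* (0.83, adjusted p = 0.0489), and a summed level of 247 to 412 CPM in Gas and 132 to 175 CPM in Sol. The count was 5 without Gas replicate 3 and 0 without Gas replicate 1, Sol replicate 1 or Sol replicate 3. It was 6 with DESeq2 and 7 in the 4-library set, all higher in Gas. The muscles did not overlap for 7 of these 8 markers, against 30.9% of all genes tested. Of 8 fibroblast markers *Dpt* was called, higher in Gas (0.95, adjusted p = 0.0477), and their summed level was 3468 to 4546 CPM in Gas and 1993 to 3087 CPM in Sol. With DESeq2 3 fibroblast markers were called and in the 4-library set 5, all higher in Gas. Those of neutrophil and blood cells summed to 16.7, 18 and 70.1 CPM in Gas and 22.8 to 23.9 CPM in Sol, with Gas replicate 3 highest. The part of these cells in the differences above was not tested. Of 12 genes of the neuromuscular junction 2 were called, *Chrna1* and *Chrnd* (-2.19, adjusted p = 0.0157), the delta subunit, both acetylcholine receptor subunits and both higher in Sol. All of the calls but that of *Chrna1* were lost with 1 library left out, *C1qa* (without Gas replicate 1 or Sol replicate 1 or 3, adjusted p up to 0.165) and *C1qb* (without Gas replicate 1 or 2 or Sol replicate 1 or 3, adjusted p up to 0.158). Also lost were *Cd163* (without Gas replicate 1 or 2 or Sol replicate 1, 2 or 3, adjusted p up to 0.212) and *Dpt* (without Gas replicate 1 or 2 or Sol replicate 1 or 3, adjusted p up to 0.218). Also lost was *Chrnd* (without Sol replicate 1 or 3, adjusted p up to 0.0815).

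The same muscles of LSD1-mKO mice, 5 libraries each, gave a second set of libraries that shares none with the WT comparison but was counted in the same separate tables. There, 3367 of 13749 genes were called (24.5%), with more libraries per muscle and in the fit of all 16 libraries. In WT the same fit called 2337 genes, against 1011 with the WT libraries alone. Of the 1011 genes called in WT, 996 had the same direction in LSD1-mKO (98.5%, against 79.5% of all genes tested), and 887 were also called in that direction. The test of whether the muscle difference itself differed between genotypes called 0 of 13749 genes (0%, edgeR quasi-likelihood test of the interaction, Benjamini-Hochberg adjusted), with 671 at an unadjusted p under 0.05 (4.88%) and 17 called by DESeq2. *Myh4* had a log2 fold change of 9.28 in WT (10.16 without WT Sol replicate 2) and 6.21 in LSD1-mKO (interaction -3.07, adjusted p = 0.654). The fold change of *Mybph* was 7.11 in WT and 1.75 in LSD1-mKO (adjusted p of the interaction = 0.341), and that of *Kcnf1* was 5.65 (4.41 without WT Gas replicate 1) and 0.69 (adjusted p = 0.341). *Sln* came to -4.61 and -2.60 (adjusted p = 0.942). *Chrna1*, called in WT at -1.48, was 0.06 in LSD1-mKO (adjusted p of the interaction = 0.667), and *Slc27a1*, a fatty acid transporter, was -1.12 and 0.01 (adjusted p = 0.611). The WT call of 2 of these genes rested on single libraries, *Kcnf1* (without Sol replicate 1 or 3, adjusted p up to 0.0616) and *Slc27a1* (without Gas replicate 1 or 2 or Sol replicate 1, 2 or 3, adjusted p up to 0.198). None of these genes passed the test of the interaction, which does not show that their differences were equal.

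**Figure D5:**
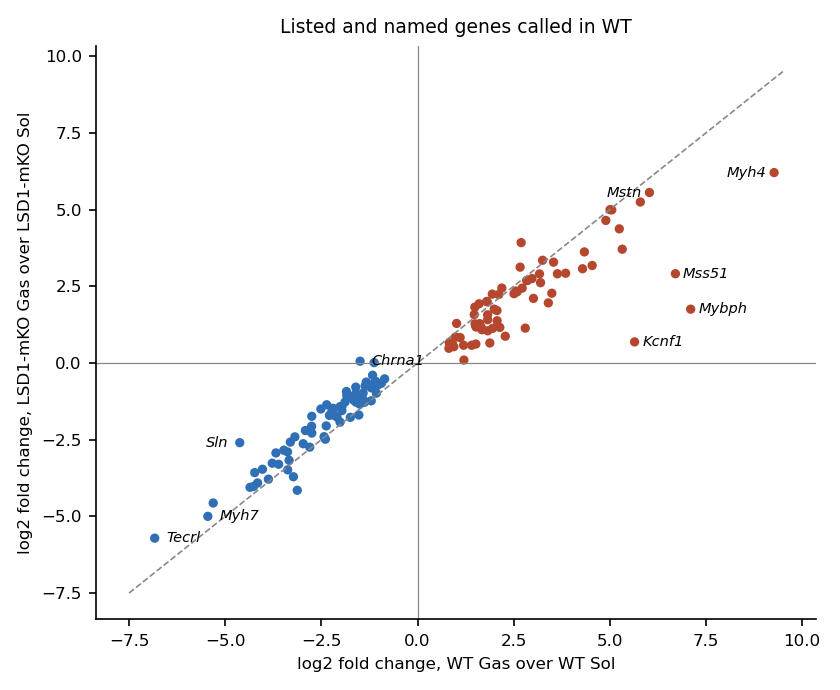
Log2 fold change, Gas over Sol, in WT (3 libraries per muscle) against LSD1-mKO (5 per muscle) for listed and named genes called in WT, with the WT values from the fit of all 16 libraries. Red points were higher in Gas and blue points higher in Sol in WT, and the dashed line marks equal differences. Most points keep their sign, which *Chrna1* does not, and *Mybph*, *Kcnf1* and *Myh4* are among those far from the line.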

How the data were processed

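Poly(A) RNA of WT and LSD1-mKO Gas and Sol was sequenced as single-end reads of 75 bp. The authors aligned the reads to mm10 with STAR and counted uniquely assigned reads over UCSC exons with featureCounts 1.5.2, without strand, and deposited raw counts per gene in 1 table for each muscle. Reads of paralogs and of overlapping or antisense genes are therefore uncertain. The deposited tables of genotype comparisons hold log2 fold changes, mean log2 CPM and p-values and were not used. The number of columns from other samples was 0.

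The counts of 24421 genes were filtered with filterByExpr (minimum count 10), scaled by TMM and compared between muscles with the edgeR 4.0.16 quasi-likelihood test (two-sided, limma 3.58.1, R 4.3.3) over the 6 WT libraries, with Benjamini-Hochberg adjustment over all genes tested and a threshold of 0.05. Each standard error is the fitted log2 fold change over the root of its F statistic. The LSD1-mKO muscles and the interaction were tested with the same method in 1 fit of all 16 libraries, with the spread estimated over both genotypes. An exact permutation test of 3 against 3 libraries cannot go below a p of 0.1, so none is given. The scripts were tested on simulated data. Exon lengths and gene coordinates came from GENCODE M21 (GRCm38), not from the authors' annotation, and promoters from RefSeq (GRCm38.p6). Alternatives were DESeq2 1.42.0, other scalings, filters, tests and covariates, and leaving out each library.

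The members and the 25 gene lists were chosen with earlier results of these data known. Genes were named as the 10 largest differences on each side with a mean of at least 100 reads and no overlap, up to 5 called members of each list and side above the same minimum, the fiber markers and *Kdm1a*. Outside that rule, and after their values were seen, *Tnni2*, *Myh1*, *Atp2a1*, *Actn2*, *Ldha*, *Foxo1*, *Nr3c1*, *Fkbp5*, *Ppard*, *Sox6*, *Cs*, *Npr3*, *Sv2b*, *Cdh22*, *Myom3*, *Cyfip2*, *Sbk3*, *Cib2*, *Actc1*, *Mrln*, *Prkag3*, *Nrtn*, *Tspan8*, *Enox2*, *Prox1*, *Hoxd10*, *Myl1*, *Mylpf*, *Tnnt3*, *Tnnc1*, *Rcan1*, *Aldoa*, *Pygm*, *Fabp3*, *Acadl*, *Acadm*, *Acadvl*, *Chrnd*, *Eno3*, *Gapdh*, *Mybpc1*, *Myh13*, *Myl3*, *Mylk2*, *Mylk3*, *Myoz1*, *Myoz2*, *Myoz3*, *Pgam2*, *Pgk1*, *Phka1*, *Phkb*, *Pkm*, *Slc27a1*, *Tpi1*, *Tpm1*, *Vgll2*, *Cpt1b*, *Cryab*, *Esrra*, *Gys1*, *Hk2*, *Klf15*, *Myh8*, *Pdk4*, *Slc2a4*, *Sqstm1*, *Tsc22d3*, *Xirp1* were named, as were the promoters shown. Some list members counted in the text are not reported here by name.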

Additional observations from a re-analysis of the deposited data

How the results depend on the processing

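The number of genes called, 1011 (491 higher in Gas and 520 in Sol), was 4596 (2310 and 2286) in the 4 libraries left without Gas replicate 3 and Sol replicate 2, 2337 (1134 and 1203) with all 16 libraries in 1 fit, 1825 (937 and 888) with DESeq2, 1771 (980 and 791) with a covariate for ribosomal protein level, 1690 (871 and 819) with the edgeR exact test, 1669 (818 and 851) with offsets for length and GC content and 214 (106 and 108) when tested against a fold change of 2. It stayed within 1.5 times under RLE scaling (1000), upper quartile scaling (1004) and no filter on low counts (1177). Leaving out 1 library gave 308 to 1633 genes, 125 to 828 higher in Gas and 181 to 805 higher in Sol. Of the genes called, 48.6% were higher in Gas, and 55.3% with the ribosomal protein covariate.

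The deviations of same-numbered Gas and Sol libraries correlated at r = 0.14, -0.57 and -0.29 across genes, no Gas library correlated best with its own number, and no source says that a number marks a mouse, so the numbers were not taken to pair the libraries. With the replicate number as a block 396 genes were called (189 and 207), and 796 (386 and 410) with the block and the offsets together. The interaction, with 0 genes called, gave 17 with DESeq2, 1 with the replicate block, and 0 to 1 when 1 library was left out, the 1 without LSD1-mKO Sol replicate 3.

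Over the 156 genes chosen for naming and all alternatives no fold change turned its sign. Of these genes 133 were called, so the choice itself favored a stable sign, and some list medians did change sign. Over the same genes 2381 values kept their side of the threshold, 351 fell below it and 76 passed it. The causes were not tested. Depth limits genes near 3 reads per library.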

Other observations

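Some large differences belonged to no list, and their genes were chosen after their values were seen. Toward Sol, *Cdh22*, a cadherin, stood at 1.00, 1.08 and 1.51 CPM in Gas and 11.9, 14.6 and 12.4 CPM in Sol (log2 fold change -3.46 ± 0.26 SE, adjusted p = 0.000916). *Myom3*, an M-band protein of the sarcomere, stood at 32.3, 36.7 and 16.9 CPM in Gas and 372, 166 and 308 CPM in Sol (log2 fold change -3.30 ± 0.42 SE, adjusted p = 0.00400). *Cyfip2*, a regulator of actin assembly, stood at 4.37, 4.11 and 6.16 CPM in Gas and 48.8, 33.3 and 63.1 CPM in Sol (log2 fold change -3.32 ± 0.31 SE, adjusted p = 0.00189). *Sbk3*, a kinase, stood at 2.46, 1.94 and 3.24 CPM in Gas and 25.6, 21.1 and 23.0 CPM in Sol (log2 fold change -3.21 ± 0.26 SE, adjusted p = 0.00103). The muscles did not overlap for any of these 4 genes, as for all called genes.

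Toward Gas, *Actc1*, cardiac actin, stood at 869, 533 and 289 CPM in Gas and 27.0, 34.2 and 21.8 CPM in Sol (log2 fold change 4.35 ± 0.45 SE, adjusted p = 0.00236). *Prkag3*, the AMP-activated kinase subunit of fast muscle, stood at 75.6, 54.7 and 90.9 CPM in Gas and 6.26, 8.45 and 6.10 CPM in Sol (log2 fold change 3.41 ± 0.28 SE, adjusted p = 0.00103). *Mrln*, the gene of myoregulin, a small inhibitor of SERCA, stood at 84.7, 85.0 and 257 CPM in Gas and 10.5, 16.9 and 6.70 CPM in Sol (log2 fold change 3.64 ± 0.56 SE, adjusted p = 0.00855), against the direction of *Sln*, which encodes another such inhibitor, and came to 2.90 without Gas replicate 3. *Cib2*, a calcium-binding protein, stood at 178, 146 and 366 CPM in Gas and 5.76, 16 and 7.91 CPM in Sol (log2 fold change 4.55 ± 0.53 SE, adjusted p = 0.00331). *Nrtn*, neurturin, a ligand of the GDNF family, stood at 28.5, 25.4 and 112 CPM in Gas and 1.73, 9.59 and 3.52 CPM in Sol (log2 fold change 3.49 ± 0.80 SE, adjusted p = 0.0372), and came to 2.47 without Gas replicate 3 and 4.39 without Sol replicate 2. *Tspan8*, a tetraspanin, stood at 81.8, 67.7 and 158 CPM in Gas and 1.38, 5.70 and 3.30 CPM in Sol (log2 fold change 4.90 ± 0.58 SE, adjusted p = 0.00331). *Enox2*, a cell surface oxidase, stood at 58.3, 50.3 and 49.7 CPM in Gas and 4.74, 3.75 and 5.0 CPM in Sol (log2 fold change 3.55 ± 0.22 SE, adjusted p = 0.000466). None of these genes overlapped between the muscles, which held for all called genes. The call was lost for *Nrtn* (without Gas replicate 1 or Sol replicate 1 or 3, adjusted p up to 0.165) and *Mrln* (without Sol replicate 1, adjusted p = 0.0595).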
